A study of Homo sapiens with 12 samples.

Results

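Single knockdowns were compared between the niraparib endpoint, taken days after the drug had been removed, and the reference endpoint of the same culture, in K562 cells, an established human chronic myelogenous leukemia line that carried the CRISPR interference machinery. In CRISPR interference a catalytically dead Cas9, directed by a sgRNA to a start site, represses transcription there. The library was made of constructs with 2 sgRNAs each. Of its 1301881 constructs, the 119460 (9.176%) that joined a sgRNA against a gene to a non-targeting sgRNA were taken as single knockdowns, and they covered all 543 genes of the library with 220 constructs per gene. The 3025 constructs with 2 non-targeting sgRNAs served as controls and set the scale, so that a response of 0 is the behaviour of control cells.

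The screen was run in 2022 and again in 2023, each time with 2 replicate cultures, which made 12 libraries in 6 groups of 2. Every culture was sampled at T0, on day 9 after transduction, and then divided into a reference arm with vehicle (DMSO) and a niraparib arm. In 2022 the niraparib arm received 2 µM for 3 days, and both arms were harvested on day 18. In 2023 cells received 2 µM raised to 3 µM, were freed of drug after 4 days and were collected on day 19. All arms carried the same library in the same line, and residual expression of the repressed genes was not measured.

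Niraparib inhibits PARP1 and PARP2, enzymes that bind broken DNA and mark the site with chains of ADP-ribose, which recruit repair proteins. An inhibited PARP1 can stay locked on DNA and block replication forks, and cells then need homologous recombination, in which an intact copy of the sequence is used to mend the break. Cells that lack BRCA1 or BRCA2 are known for their sensitivity to such inhibitors, and loss of PARP1 itself is known to protect against them.

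The libraries held 182.6 to 460.7 megareads. PCR reads carried no molecular identifiers, and counting error is thus only part of their error. One library stood apart from its replicate. The ratio of replicate 1 to replicate 2 had an SD over genes, on the log2 scale, of 0.150 in the 2022 reference group, against 0.016 to 0.039 in the other 5 groups. Over the 55 non-targeting sgRNAs the SD in the 2022 reference group was 0.022. In this group 35 genes were lower and 3 higher in replicate 1 by more than 0.3, and no gene passed 0.3 in any other group. BRCA2 knockdowns were lowest there, with a log2 ratio of -1.03, followed by RAD54L at -0.94, BARD1 at -0.92 and PARP1 at -0.78. SHMT2 knockdowns were highest, at 0.52. In the niraparib arms of the same 2 cultures these ratios lay near 0, at -0.04 for BRCA2 and 0.03 for PARP1. All 52 genes with a response under -0.5 were lower in the reference library of 2022 replicate 1 than in that of replicate 2 (median -0.26, against -0.02 over all genes), and 23 of the 24 genes with a response over 0.5 were higher (median 0.12). What set this library apart was not tested. Results are therefore given with all 4 cultures and, for a number of genes that move, by culture or without 2022 replicate 1. The genes HUS1, LIG1, LIG3, FANCE, ORC5, STRA13, CEP89, USP15, FAM19A2, RAD52, BRIP1, MOSPD2, HNRNPK, RMI1, AURKA and CSTF1 are named after their values were seen.

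**Figure D1:**
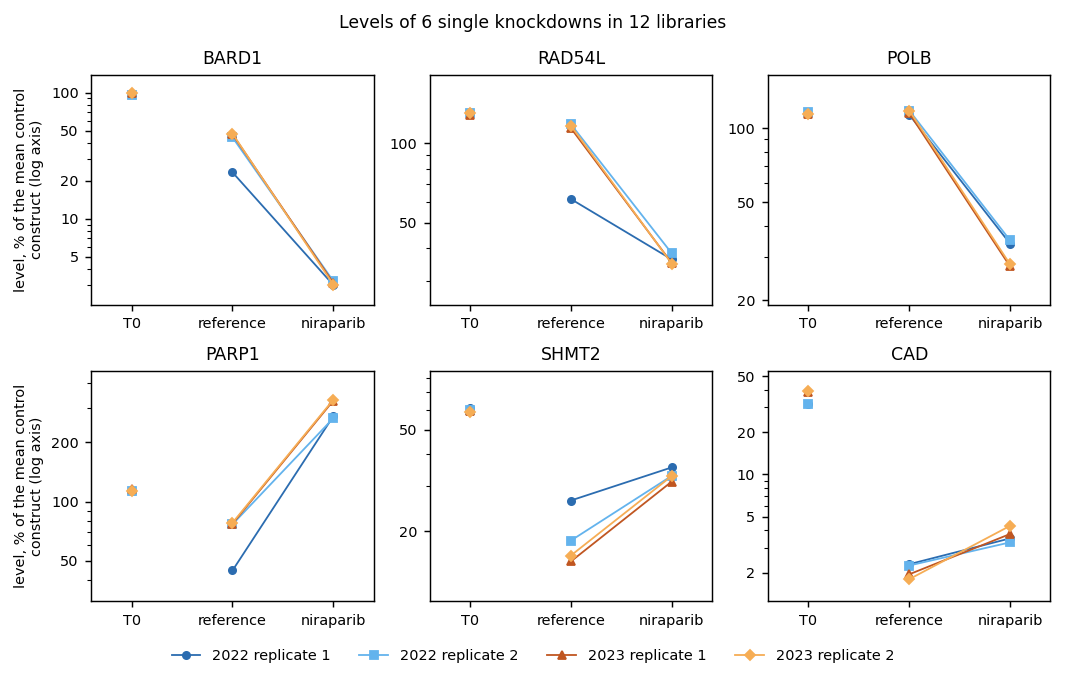
Level of 6 single knockdowns in each of the 12 libraries, as a percent of the mean control construct on a log axis; lines join the reference and niraparib arms of one culture, and T0 points are not joined. The 2022 replicate 1 reference point sits apart for BARD1 (23.4% against 44.3% to 47.3%), RAD54L, PARP1 and SHMT2, and with the others for POLB and CAD.

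The response, the log2 ratio of niraparib to reference, ran from -3.67 for BARD1 to 2.13 for PARP1. In edgeR's quasi-likelihood test with Benjamini-Hochberg adjustment, knockdowns of 194 of 543 genes (35.7%) were depleted relative to controls and those of 240 (44.2%) enriched at an adjusted p under 0.05, and 109 did not pass. Without 2022 replicate 1 the counts were 220 and 251. The list counts below stand against these shares of 35.7% lower and 44.2% higher over all genes. The lists were chosen with earlier results of these data known, so their counts describe the members and are no test of a pathway. Of the genes called, 186 lower and 237 higher ones had the same sign in all 4 cultures. Most responses were small. Quartiles of all genes lay at -0.16 and 0.21 with a median of 0.01, only 22 genes fell below -1, and PARP1 was the only gene above 1. The 55 non-targeting sgRNAs, fitted like genes, ranged from -0.09 to 0.05, and 2 of them were called. Of the calls, 36 lower and 15 higher genes lay within this range of the controls. Scaling by median of ratios moved the split to 157 lower and 302 higher. Scaling both arms to equal numbers of cell doublings gave 367 lower and 60 higher, and the signs it turned are given beside the genes.

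**Figure D2:**
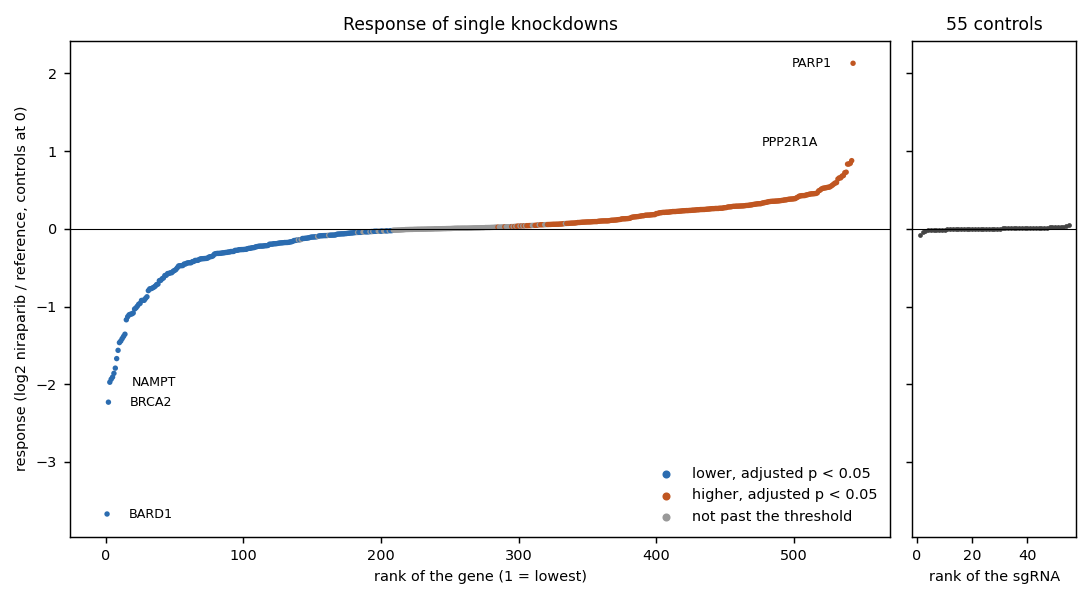
Response (log2 niraparib over reference, controls at 0) of the 543 single knockdowns in rank order, coloured by the edgeR call, and of the 55 non-targeting sgRNAs on the same axis. The lower tail reaches -3.67 (BARD1), while on the upper side PARP1 at 2.13 is separated from PPP2R1A at 0.88.

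The drug's own targets came first. PARP1 knockdowns stood at 113% to 116% of the mean control construct at T0. In reference they fell to 44.6% and 76.6% in 2022 and to 77.2% and 78.0% in 2023. Under niraparib they reached 272% and 265% in 2022 and 326% and 330% in 2023. Every niraparib library lay above every other library for this gene. The response was 2.13 ± 0.34 (SD, n = 4), and the highest of the 4 cultures was 2022 replicate 1, at 2.61, whose reference level was the low one. Without that culture the fitted response was 1.94. PARP1's sgRNAs gave 2.2 and 2.05, and none of its 220 constructs was below 0. PARP2 knockdowns barely moved, from 137% to 140% in reference to 146% to 149% under niraparib, a response of 0.09 ± 0.03 (SD, n = 4) with an adjusted p = 0.0003. The niraparib and reference levels of PARP2 did not overlap, although the response was close to the highest control sgRNA (0.05). Here and below, the share of all 543 genes with no overlap between the arms was not counted. Non-overlap therefore does not set a gene apart.

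The list of PARP1, HPF1 and ADP-ribose turnover thus held opposite responses. Of its 5 measured genes 3 were higher and 2 lower, with a median of 0.07, against 44.2% higher and 35.7% lower over all genes. C4orf27 (HPF1), the partner that lets PARP1 modify serine, fell to -1.44 ± 0.15 (SD, n = 4). Its levels in reference were 85.0% and 93.3% in 2022 and 91.9% and 93.4% in 2023, against 34.4% and 37.3%, then 31.2% and 31.2% under niraparib, with no overlap. CHD1L, a chromatin remodeller that binds ADP-ribose chains, was at -0.10. Its response was 0.06 in 2022 replicate 1 and between -0.15 and -0.17 in the other 3 cultures, and the fit without that culture gave -0.16.

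The enzymes that supply NAD, the substrate of PARP1, and the nucleotide salvage factor DNPH1 formed a list of 3 genes, all lower (median -1.86, against 0.01 for all genes). NAMPT, the rate-limiting enzyme of NAD salvage, was at 55.9% and 63.2% in the 2022 reference libraries and at 56.0% and 57.4% in those of 2023. Under niraparib it stood at 15.9% and 16%, then 13.8% and 13.7%. NAMPT knockdowns thus grew poorly without drug and were depleted again with it in every culture. NMNAT1, which makes NAD in the nucleus, fell to -0.97 ± 0.11 (SD, n = 4) on top of a growth change of -1.39. DNPH1, which removes the damaged nucleotide hydroxymethyl-deoxyuridine monophosphate, gave -2.01 and -1.83 in 2022 and -1.81 and -1.79 in 2023. It was the 1 gene among the 24 lowest whose deepest value came from 2022 replicate 1.

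The BRCA1-BARD1 and PALB2-BRCA2 list had 4 of 5 measured genes lower with a median of -1.94, and only the helicase BRIP1 did not pass. BARD1, the partner of BRCA1 in a ubiquitin ligase, went from 23.4%, 44.3%, 46.7% and 47.3% in the reference libraries to 2.99%, 3.22%, 3.11% and 3.02% under niraparib, given here as 2022 replicates 1 and 2 and then 2023 replicates 1 and 2. The niraparib levels of BARD1 lay close together, and the spread of its response, -2.97 to -3.97, came with the reference library of 2022 replicate 1. BRCA1 went from 63.5%, 84.0%, 84.9% and 86.7% to 19.8%, 21.8%, 21.3% and 20.1% in the same order. BRCA2, which acts after resection, went from 25.6%, 52.3%, 51.6% and 53.2% to 10.1%, 10.4%, 8.52% and 8.83%. For all 3 genes every niraparib library was below every reference library. Without 2022 replicate 1 the fitted responses were -3.86 for BARD1, -2.0 for BRCA1 and -2.46 for BRCA2.

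Of the mediators and strand exchange factors, 13 of 14 were lower and none higher, with a median of -0.58. RAD54L, a translocase of strand exchange, had a response that differed in the culture with the doubtful library. Its reference levels were 61.5% in 2022 replicate 1 and 114% to 118% in the other 3 cultures, while the 4 niraparib levels lay between 35.0% and 38.3%. The response was -0.76 in that culture and -1.62, -1.69 and -1.73 in the others, and the fit without that culture gave -1.67. RAD51C and RAD51B, subunits of the paralog complexes, fell to -1.17 ± 0.28 and -1.03 ± 0.13 (SD, n = 4). For RAD51C the values were -0.77, -1.19, -1.37 and -1.35 in the order above. RAD52 was the 1 member that did not pass.

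End resection, which turns a break into single-stranded DNA, had 6 of 8 genes lower (median -0.40). BLM, a helicase, was higher at 0.09 and turned to -0.40 when scaled to equal doublings. RBBP8 (CtIP), which starts resection, fell by 1.44 to 1.96 on the log2 scale over the 4 cultures. AUNIP, which brings RBBP8 to breaks, gave the tightest response of the 24 lowest genes, at -1.07, -1.09, -1.10 and -1.11. The nuclease complex subunit RAD50 fell to -0.54 ± 0.23, from -0.19 in 2022 replicate 1 to -0.70 in 2023 replicate 2. Its fitted response without 2022 replicate 1 was -0.63. The BRCA1-A complex, which holds resection back at ubiquitin marks, had all 4 measured genes lower but near the controls (median -0.09). FAM175A (ABRAXAS1) lay at -0.12, UIMC1 at -0.11 and BRCC3 at -0.07, the last within the range of control sgRNAs.

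The opposing 53BP1, RIF1, shieldin and RNF8-RNF168 list, which favours end joining, had 5 genes lower, 3 higher and 3 not past the threshold (median -0.00). Over all genes 35.7% were lower and 44.2% higher. RIF1 fell to -0.55 ± 0.08 (SD, n = 4). TP53BP1 was higher at 0.22, but with 0.55 in 2022 replicate 1 and 0.12, 0.13 and 0.10 in the other cultures. Its levels in the 4 niraparib libraries were 86.9%, 84.2%, 82.1% and 83.4%, and those in reference were 59.4%, 77.6%, 75.1% and 77.7%. The rise of TP53BP1 without 2022 replicate 1 was 0.12 (adjusted p = 0.0067). FAM35A (SHLD2) went from 0.08 to 0.05 without that culture and then did not pass (adjusted p = 0.053). Of the end joining list, XRCC5 and XRCC6, the Ku proteins that bind DNA ends, were higher at 0.21 and 0.17, and turned to -0.47 and -0.026 when scaled to equal doublings. KIAA1524 was lower at -0.22, and 5 of 8 genes did not pass.

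The Fanconi anemia list, whose proteins unhook crosslinks at forks, had 16 of 17 genes lower and 1 higher (median -0.80). STRA13, counted among the lower genes, could not be matched to a single RefSeq gene. The core complex subunits FANCB, FANCA and C19orf40 (FAAP24) fell to -1.56 ± 0.16, -1.36 ± 0.13 and -1.38 ± 0.12 (SD, n = 4). FANCD2, the protein that the core complex marks with ubiquitin, fell to -1.11 ± 0.15. SLX4, the scaffold of nucleases, fell to -1.10 ± 0.15, with -0.88 in 2022 replicate 1 and -1.16 to -1.18 elsewhere. UHRF1 was the 1 higher member, at 0.09, but it was at 0.01 with the second sgRNA alone and at -0.023 when scaled to equal doublings, neither past the threshold.

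Repair of single-strand breaks gave 5 of 5 genes lower at an adjusted p under 0.05. POLB, the gap-filling polymerase, moved from 114%, 118%, 115% and 118% in reference to 34.0%, 35.1%, 27.5% and 28.0% under niraparib. XRCC1, the scaffold of this pathway, moved from 70.6%, 96.5%, 96.9% and 99.3% to 29.7%, 30.3%, 26.5% and 27%. LIG3, the ligase that partners XRCC1, fell to -0.96 ± 0.10 (SD, n = 4). Levels of POLB and XRCC1 did not overlap between the arms, and the share of all 543 genes with no overlap was not counted. For POLB and the replicative ligase LIG1 the response also differed between the screens. POLB stood at -1.74 and -1.75 in 2022 and at -2.07 and -2.07 in 2023, a difference of -0.325 ± 0.021 (SE, edgeR adjusted p = 0.0021). LIG1 stood at -0.52 and -0.55 in 2022 and at -0.76 and -0.73 in 2023, a difference of -0.21 ± 0.02 (SE, edgeR adjusted p = 0.031). The labels give a culture representation of 350x in 2022 and 400x in 2023. Dose, days of exposure, harvest day, this representation, sequencing depth and the RNase step of DNA extraction differed together between the screens and cannot be told apart.

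These were the only 2 genes of 543 (0.368%) called for a difference between the screens, with 103 at an unadjusted p under 0.05. The count depended on single cultures and on the tool. DESeq2 called 66. Without 2022 replicate 1 edgeR called 107, and without 2022 replicate 2 it called 250. Without either 2023 replicate it called 0, with 23 and 20 at an unadjusted p under 0.05. Among the 434 called genes, 432 had the same sign in both screens, but they were called on the average of these same screens, so this is no separate support.

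Of the RFC and alternative clamp loader list 6 of 7 genes were lower and none higher (median -0.42). RFC1, the large subunit that loads the PCNA ring, fell to -1.08 ± 0.15, RFC4 to -0.71 ± 0.12 and RFC5 to -0.60 ± 0.14 (SD, n = 4). WDHD1, which couples the helicase to polymerase alpha, gave -0.91 in 2022 replicate 1 and -1.38, -1.63 and -1.72 in the others. The helicase and origin licensing list had 12 of 14 genes lower, but shallowly (median -0.12), with GMNN at -0.32, MTBP at -0.27 and MCM5 at -0.26. Members of that list from -0.08 upward lay within the range of control sgRNAs. Of 10 genes for DNA polymerases and priming 7 did not pass, and POLD2 at -0.26 was the lowest.

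The ATR checkpoint list had 10 of 13 genes lower (median -0.18). CLSPN, a mediator of CHEK1 activation, was higher at 0.17 and turned to -0.44 when scaled to equal doublings. The kinase ATR fell to -0.87 ± 0.12, its activator TOPBP1 to -0.56 ± 0.09 and its partner ATRIP to -0.44 ± 0.06 (SD, n = 4). HUS1, of the 9-1-1 clamp, did not pass with all cultures, at -0.14, and did without 2022 replicate 1, at -0.28 (adjusted p = 0.0004). In the list of SMC complexes and cohesin 7 of 8 genes were lower and 1 higher (median -0.18). The helicase DDX11, which acts with cohesin, fell to -0.75 ± 0.16, while WAPAL, which releases cohesin, rose to 0.39 ± 0.03 (SD, n = 4).

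Outside repair, 5 of 6 brakes on kinase and RAS signalling were lower (median -0.32), led by the phosphatase PTPN1 at -0.44, the corepressor subunit GPS2 at -0.39 and the RAS inhibitor NF1 at -0.33. Of the COP9 signalosome and cullin list 7 of 8 genes were lower (median -0.27), with COPS4 at -0.45 and COPS5, the catalytic subunit, at -0.38. C12orf66 (KICS2), which restrains mTORC1, fell to -0.44 ± 0.02 (SD, n = 4), and its growth change in reference was 0.75. GPS2 had a growth change of 0.51. For both genes the response is relative to the reference libraries that also enter the growth change. DENR and MCTS1, partners in translation reinitiation, were both lower, at -0.58 ± 0.12 and -0.41 ± 0.11.

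**Figure D3:**
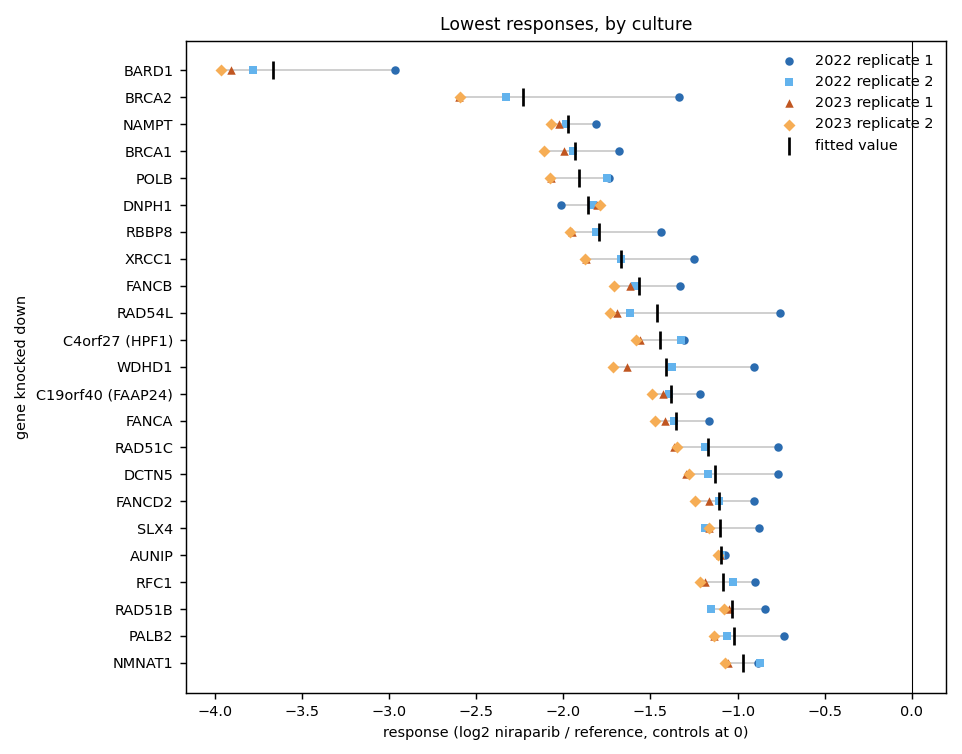
Response of 23 of the 24 lowest genes in each of the 4 cultures, with the fitted value as a black bar; the axis is the log2 ratio of niraparib to reference with controls at 0. The 2022 replicate 1 culture lies nearest 0 for most genes, as for BRCA2 (-1.34 against -2.33 to -2.60) and RAD54L (-0.76 against -1.62 to -1.73), and lies lowest for DNPH1.

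Of the 52 genes called with a response under -0.5, 50 had their weakest value in 2022 replicate 1. The median value in that culture was 0.79 of the mean over cultures, against 1.02, 1.07 and 1.11 in 2022 replicate 2 and in 2023 replicates 1 and 2. Among the 24 genes above 0.5 it was the weakest for 19, and 2022 replicate 2 was the weakest for 5. Their median values over the mean were 0.80 and 0.93 in 2022 replicates 1 and 2, against 1.12 and 1.14 in 2023. Without 2022 replicate 1, 23 of the 24 lowest genes and all 24 of the highest stayed in those sets, with ZAR1L in place of NMNAT1. The responses of the 24 lowest became 0.98 to 1.14 times as large. Among all called genes, 7 moved by more than 1.5 times. The gene next after the 24 lowest was LIG3 at -0.96, against -0.97 for NMNAT1 just inside, and on the upper side CENPM at 0.50 followed ATXN10 at 0.51.

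After PARP1 the highest responses were those of PPP2R1A (0.88), CAD (0.84), SHMT2 (0.83), CYB5B (0.83) and HSD17B12 (0.73). CYB5B, a cytochrome of the outer mitochondrial membrane, and HSD17B12, an enzyme of fatty acid elongation, came from one list. This list of endoplasmic reticulum, lipid and membrane genes had 3 of 5 higher and 2 lower (median 0.41). The 2 lower members were DENR and MCTS1, the partners in translation reinitiation given above. That list's median turned to -0.13 when scaled to equal doublings. All 6 measured genes of mitochondrial serine and one-carbon metabolism were higher (median 0.50, and 0.26 when scaled to equal doublings, where 2 of the 6 were lower). SHMT2, which moves a carbon unit from serine to folate, went from 26.4%, 18.4%, 15.2% and 16.1% in reference to 35.6%, 33.0%, 31.3% and 32.9% under niraparib. Every niraparib level of SHMT2 was above every reference level, and the reference library of 2022 replicate 1 was again the one apart. The serine carrier SFXN1 gave 0.35 in that culture and 0.72, 0.73 and 0.83 in the others. MTHFD2, the next enzyme of the pathway, gave 0.39 and then 0.66, 0.76 and 0.76.

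Of the PP2A and PP4 list 3 genes of 7 were higher, 2 lower and 2 not past the threshold (median 0.03), against 44.2% higher and a median of 0.01 over all genes. The scaffold PPP2R1A went from 40.3%, 34.9%, 31.6% and 32.1% to 64.5%, 62.4%, 63% and 64.0%. The catalytic subunit PPP2CA gave 0.56, 0.70, 0.80 and 0.83, and the regulatory subunit PPP2R2A 0.56, 0.63, 0.77 and 0.78. PPP4C, the catalytic subunit of the related PP4, was lower at -0.25 ± 0.04, as was TIPRL, which binds free phosphatase subunits, at -0.18 ± 0.02 (SD, n = 4). Within the list, knockdown of PP2A and of PP4 catalytic subunits thus gave responses of opposite sign.

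All 5 genes of ribosomal RNA processing were higher (median 0.35), and 4 of 5 were lower when scaled to equal doublings (median -0.33). They were led by the H/ACA proteins NOP10 and DKC1 at 0.66 ± 0.09 and 0.53 ± 0.06 (SD, n = 4). Of the mitochondrial tRNA synthetases 4 of 5 were higher (median 0.32), with PARS2 at 0.52 and CARS2 at 0.33, and 5 of 5 lower with that scaling (median -0.27). Pre-mRNA splicing had 5 of 7 higher (median 0.13), and 6 of 7 lower with that scaling (median -0.21). It was led by ZCRB1 of the minor spliceosome at 0.68 and the importin IPO13 at 0.45, which stood at 0.37 and -0.62 with that scaling. Of the kinetochore and spindle list 7 of 9 were higher (median 0.20), with DCTN1 at 0.53 and CENPM at 0.50, and DCTN5 was the 1 lower member. With that scaling 6 of 9 were lower (median -0.42), DCTN1 was at 0.01 and CENPM at -0.034. MED23 of Mediator was higher at 0.46, with 0.80 in 2022 replicate 1 and 0.27, 0.40 and 0.40 elsewhere, and at 0.33 without that culture. The topoisomerases TOP1 and TOP2A were higher at 0.49 ± 0.06 and 0.44 ± 0.02 (SD, n = 4), and stood at -0.014 and -0.18 with that scaling.

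CAD, which starts pyrimidine synthesis, shows at what level such rises occurred. It was at 31.6% to 39.0% at T0, at 2.3%, 2.25%, 1.94% and 1.79% in reference, and at 3.50%, 3.28%, 3.77% and 4.30% under niraparib. CAD knockdowns were thus strongly depleted in both arms, and less so in the niraparib arm. The growth change, reference over T0, is taken from the same reference libraries as the response, so the 2 are set side by side with no test. Of the 24 highest genes 21 had a growth change under -1, against 4 of the 24 lowest. Of all 146 genes with such a growth change, 117 were higher under niraparib and 21 lower. Among the 130 genes with a growth change between -0.1 and 0.1, 5 had a called response under -0.5 (POLB, DNPH1, C4orf27, AUNIP and FANCE) and 0 had a called edgeR response over 0.5.

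Cells under niraparib also went through fewer doublings, if the constants by which the authors divided their scores are read as doublings: 7.19 to 8.04 in reference and 4.98 to 5.4 under niraparib. Scaling the niraparib change over T0 to the doublings of the reference arm turned the split to 367 lower and 60 higher and moved the median of all genes from 0.01 to -0.20. Of the 240 higher genes, 55 were then still called higher and 135 were called lower. Of the 194 lower genes, 191 were still called lower. PARP1 (2.79), PPP2CA (0.76), PPP2R1A (0.65), PPP2R2A (0.54), SHMT2 (0.43), SOS1 (0.39), ZCRB1 (0.37), MTHFD2 (0.35), SFXN1 (0.31), CYB5B (0.29), MBTPS2 (0.14) and ADPRM (0.12) stayed higher past the threshold. The values of SEH1L (0.06) and DCTN1 (0.01) no longer passed. The other 10 of the 24 turned negative: CAD (-0.69), DKC1 (-0.51), ATXN10 (-0.46), TAF2 (-0.42), PARS2 (-0.39), NOP10 (-0.33), ASCC3 (-0.15), HSD17B12 (-0.13), PPCS (-0.07) and EIF4G1 (-0.02).

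**Figure D4:**
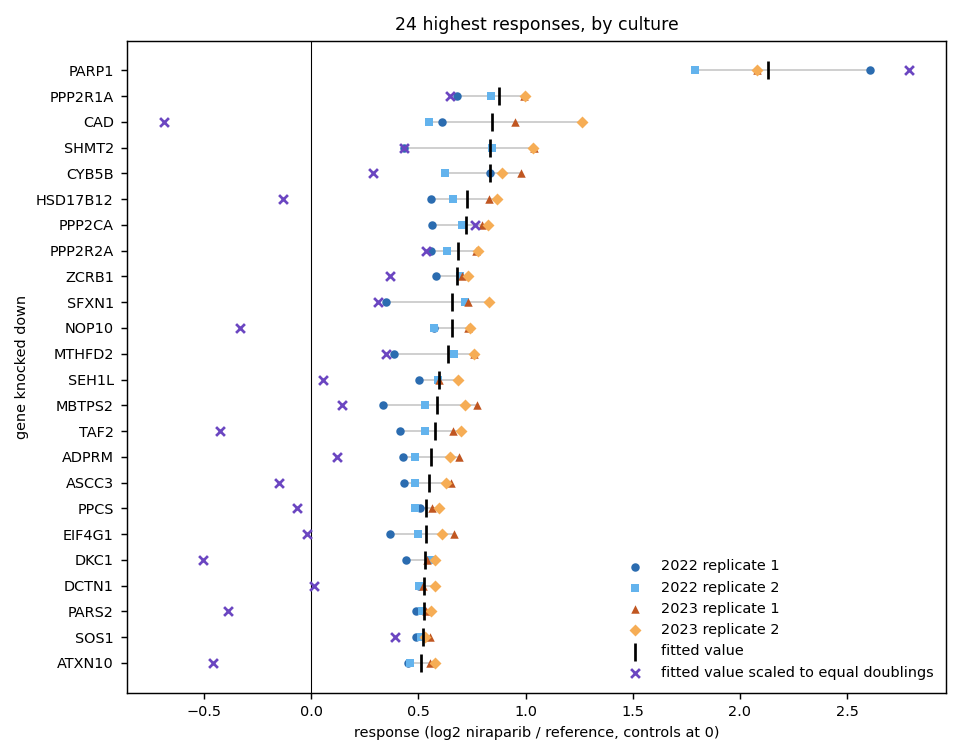
Response of the 24 highest genes in each of the 4 cultures, with the fitted value as a black bar and the fitted value after scaling to equal doublings as a purple cross; the axis is a log2 ratio with controls at 0. The crosses lie above 0 for 14 genes, PARP1 and 3 PP2A subunits among them, and below 0 for 10, with CAD lowest at -0.69.

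Each gene had 2 sgRNAs, and their responses were compared within each culture with limma. The sgRNAs differed for 216 of 543 genes (39.8%), with a median absolute difference of 0.06 over all genes. For 154 genes both sgRNAs were lower past the threshold, and for 200 both were higher. The 24 lowest and the 24 highest genes all passed with either sgRNA, but they were picked by sums over these same sgRNAs, so this is no separate support. ORC5, an origin recognition subunit, was the 1 gene whose sgRNAs passed in opposite directions, at -0.10 and 0.09. BRCA2 had the largest difference, with -3.93 ± 0.87 for its first sgRNA and -1.75 ± 0.47 for its second (SD, n = 4). XRCC1 had -1.13 ± 0.19 and -3.07 ± 0.48. NAMPT had -2.97 ± 0.11 and -1.61 ± 0.09, C4orf27 -0.95 ± 0.11 and -2.09 ± 0.18, and DNPH1 -1.44 ± 0.08 and -2.42 ± 0.17. The fitted value of a gene comes from counts summed over both sgRNAs and is not the mean of their responses, as for BRCA2 at -2.23. It thus mixes unequal sgRNAs in these cases, and the knockdown that each reached was not measured. BARD1 differed in size but both its sgRNAs lay below those of most genes, at -3.28 ± 0.41 and -4.13 ± 0.55. The 5 differences of BRCA2, XRCC1, NAMPT, C4orf27 and DNPH1 had adjusted p from 1.01e-06 to 0.00012.

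**Figure D5:**
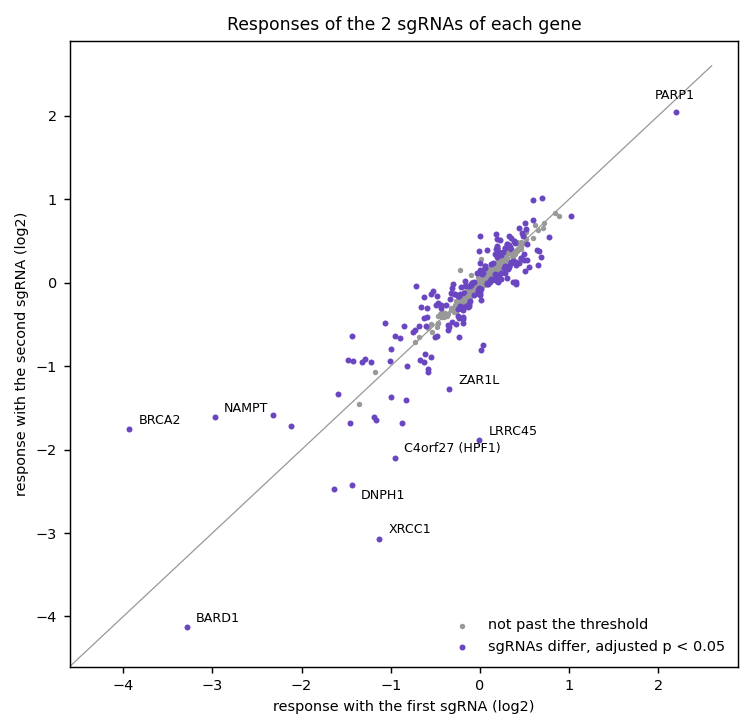
Response with the first sgRNA against response with the second sgRNA of each of the 543 genes, mean of 4 cultures, with the line of equality; purple points passed the limma test of the difference. BRCA2 and NAMPT lie left of the line, XRCC1, LRRC45 and ZAR1L right of it, and PARP1 close to it at 2.2 and 2.05.

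Whether the gene's sgRNA stood in the first or the second position of the construct made less difference. It mattered for 57 genes (10.5%) by limma, with a median absolute difference of 0.02 over all genes. The count was 70 without 2022 replicate 1 and 22, 30 and 26 without 2022 replicate 2, 2023 replicate 1 and 2023 replicate 2. BRCA2 was at -2.03 in the first and -2.52 in the second position and BARD1 at -3.46 and -3.85. XRCC1 was at -1.81 and -1.51, and XRCC3, a recombination gene, at -0.49 and -0.25, which is the opposite order. Of the 57 genes, 34 had the lower response with the sgRNA first and 23 with it second. Across the 220 constructs of a gene the direction was mostly uniform at the extremes, which were picked by sums over these same constructs. The constructs of a gene share 2 sgRNAs and the same 4 cultures and are not replicates. BARD1, BRCA1, BRCA2, NAMPT, POLB and RAD54L had 100% of their constructs below 0, while 0% of those of PARP1, PPP2R1A and SHMT2 were. Among other high genes, 13 of the constructs of CAD (5.91%), 16 of DKC1, 10 of EIF4G1 and 9 of TAF2 were below 0. Constructs with 2 non-targeting sgRNAs were below 0 in 50.2% of cases, with an SD of 0.13.

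CRISPR interference is known to repress around its target, so genes that start close together can be hit by one sgRNA. By chromosome from RefSeq and the positions in the sgRNA names, 8 pairs of matched library genes had sgRNAs within 1000 bp of each other. Some named genes also start close to a gene outside the library, on the opposite strand. Among the low genes these were BRCA1 (82 bp from NBR1), NMNAT1 (84 bp from LZIC) and WDHD1 (137 bp from SOCS4). Among the high ones were ADPRM (61 bp from SCO1) and ZCRB1 (73 bp from PPHLN1). Whether repression of such neighbours adds to these responses was not tested. ZAR1L, an egg factor, starts 145 bp from BRCA2 on the opposite strand. Its second sgRNA, named 123 bp from the stronger sgRNA of BRCA2, gave -1.28 ± 0.29 and its first, 133 bp from it, -0.35 ± 0.05 (SD, n = 4). DCTN5, a subunit of dynactin, starts 156 bp from PALB2, the link between BRCA1 and BRCA2. DCTN5 fell to -1.13 ± 0.25, with sgRNAs at -1.17 and -1.07, and PALB2 to -1.02 ± 0.19, with sgRNAs at -0.87 and -1.68. DCTN1, another dynactin subunit, was higher at 0.53. CEP89, a centriole protein that starts 284 bp from C19orf40 (FAAP24), was at -0.20 ± 0.01. LRRC45, also of the centriole, had sgRNAs at -0.01 ± 0.01 and -1.89 ± 0.36 and starts 427 bp from CENPX, for which STRA13 is 1 of the older names. The library gene STRA13, which could not be matched to a single RefSeq gene, was at -0.52 ± 0.08, with sgRNAs at -0.54 and -0.49. If both genes are on one chromosome, the STRA13 sgRNAs lie 536 and 522 bp from the LRRC45 sgRNA at -0.01. From the LRRC45 sgRNA at -1.89 they lie 880 and 866 bp away. In none of these pairs can the response be assigned to one gene from these data. FANCB, the Fanconi core subunit at -1.56, had sgRNAs 424 to 466 bp from those of MOSPD2, which gave -0.52 and -0.10. Other pairs were FAM19A2 (-0.36) with USP15 (-0.57), SMC6 (-0.20) with GEN1 (0.10, and -0.014 when scaled to equal doublings), and HNRNPK (-0.39) with RMI1 (-0.08). AURKA (0.09) and CSTF1 (0.15) formed the last pair and turned to -0.42 and -0.60 when scaled to equal doublings. The stretches between the paired start sites, where a bound sgRNA lies close to both genes, are shown from RefSeq on GRCh38.p14, read 5′ to 3′ towards the first-named gene. The first 2 are the whole stretches and the last 2 the 250 bases before the start site of the first-named gene. Capitals mark CCAAT boxes (CCAAT or ATTGG) and GC boxes (GGGCGG or CCGCCC).
BRCA2 and ZAR1L, chr13:32315364-32315507, plus strand: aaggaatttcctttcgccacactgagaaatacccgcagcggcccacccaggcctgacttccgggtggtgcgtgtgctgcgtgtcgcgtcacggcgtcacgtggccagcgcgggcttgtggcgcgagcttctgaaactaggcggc
PALB2 and DCTN5, chr16:23641311-23641465, minus strand: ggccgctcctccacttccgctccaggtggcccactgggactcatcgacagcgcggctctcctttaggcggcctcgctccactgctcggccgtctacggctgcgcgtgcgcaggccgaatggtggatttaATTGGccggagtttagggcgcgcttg
FAAP24 and CEP89, chr19:32971992-32972241, plus strand: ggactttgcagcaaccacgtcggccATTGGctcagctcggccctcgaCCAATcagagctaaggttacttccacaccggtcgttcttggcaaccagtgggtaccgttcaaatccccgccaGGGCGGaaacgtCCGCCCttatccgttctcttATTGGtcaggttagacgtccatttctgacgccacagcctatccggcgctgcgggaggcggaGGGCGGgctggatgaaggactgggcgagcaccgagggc
LRRC45 and CENPX, chr17:82023055-82023304, plus strand: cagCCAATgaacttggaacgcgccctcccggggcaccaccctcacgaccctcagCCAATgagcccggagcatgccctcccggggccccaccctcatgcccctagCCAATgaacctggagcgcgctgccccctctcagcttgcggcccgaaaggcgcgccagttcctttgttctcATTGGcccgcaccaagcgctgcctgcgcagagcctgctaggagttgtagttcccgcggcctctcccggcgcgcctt
The BRCA2 stretch of 144 bases held neither motif, and the PALB2 stretch of 155 bases held 1 CCAAT box. The FAAP24 stretch held 3 CCAAT and 3 GC boxes, and that of LRRC45 held 4 CCAAT boxes. Of 35116 RefSeq promoters, 32% held a CCAAT box and 42.6% a GC box in the 250 bases before the start, 23% and 36.3% in the last 144, and 24% and 37.2% in the last 155. The 2 motifs do not overlap in letters, and these matches are a description of the sequence alone.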

How the data were processed

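The members and the gene lists were chosen with earlier results of these data known. The authors deposited read counts per construct for each library, and log2 scores of growth and drug response per construct. Bowtie2 2.3.4.1 is named in the submitters' processing notes, and its role, the filters and the genome build are not given in the sources used here. All count columns were matched to samples by name, and 0 columns of per-sample values were left unmatched. Counts were summed per gene over its 220 constructs. Each library was scaled by its total over the 3025 control constructs.

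Sums were fitted with edgeR 4.0.16 (R 4.3.3, quasi-likelihood test) over 12 libraries, with screen and replicate as a block and the arm within each screen. The response is niraparib minus reference averaged over the screens. Benjamini-Hochberg adjustment ran over 598 features, the 543 genes and 55 non-targeting sgRNAs, and a gene was called at 0.05. Variation between replicates (edgeR's BCV) was 3.064%, with 4 residual degrees of freedom. The SE leaves out the difference between screens. Data for this comparison were also simulated with 598 features, of which 200 were genes changed by 0.25 or by a larger step (log2), in either direction. Of the genes changed by 0.25, 100% were recovered, and 1.759% of the unchanged features were called. Whether these shares hold for data with a reference library that stands apart from its replicate was not tested. They are therefore not error rates of the calls reported here. Differences between sgRNAs and between positions were tested with limma 3.58.1 on log2 ratios with a pseudocount of 1. DESeq2 1.42.0 was an alternative. The SD printed after a response is over the 4 cultures. The deposited log2 scores were recomputed from the counts, which gave the constants they had been divided by. The files do not name these constants.

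The labels pair the arms: each culture was divided after T0. The correlation of replicate differences over genes was 0.491 between reference and niraparib in 2022 and 0.209 in 2023, and -0.02 to 0.086 between T0 and either arm, with 2 pairs per screen. The genes named are the 24 lowest and 24 highest called genes with one sign in all cultures, the drug targets PARP1 and PARP2, the 3 lowest and 2 highest called members of each list, and the 8 genes with the largest sgRNA and 4 with the largest position differences. Some genes that this rule names are not reported here. Others are said to be chosen after their values were seen. Of the 543 genes, 507 matched RefSeq by symbol, 34 by a synonym and 2 not at all, and 448 had a promoter entry. The sgRNA sequences were not used here. Alternatives were TMM and median-of-ratios scaling, DESeq2, a filter leaving out constructs with 50 or fewer T0 reads (8186 single knockdown constructs), no block, either sgRNA, either position, either screen, one term for both screens, a pseudocount of 10, each replicate left out, and scaling to equal doublings.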

Additional observations from a re-analysis of the deposited data

Results flagged for a closer look

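The response of POLB differed between the screens by -0.325 and that of LIG1 by -0.212 (2023 minus 2022, edgeR's test of the difference). For 15 of the 130 named genes, 1 of the 4 cultures lay far from the other 3, and for 44 of all 543 genes. Chance gives this for about 5 percent of groups. In 12 of the 15 the culture was 2022 replicate 1, the one whose reference library stood apart. There the response was -0.76 for RAD54L, -0.88 for SLX4, -0.51 for DDX11, -0.43 for TOPBP1 and -0.43 for USP15. It was -0.39 for LRRC45, -0.36 for GPS2, -0.34 for the nuclease subunit MUS81, -0.27 for FAM19A2 and -0.0247 for MSH6. These 10 values were nearer 0 than in the other cultures. CHD1L was at 0.0635 and TP53BP1 at 0.55. In 2022 replicate 2 the polymerase epsilon subunit POLE3 stood apart at -0.20. In 2023 replicate 2 the ribonuclease H2 subunit RNASEH2B stood apart at -0.14, and in 2023 replicate 1 UHRF1 at 0.0486.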

How the results depend on the processing

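Of 2210 values of named genes under the alternatives, 2114 kept direction and side of the threshold, 62 no longer passed, 3 (all HUS1) newly passed and 31 changed sign. Of the 24 lowest genes the 23 reported here, and 12 of the 24 highest, kept both under every alternative. Without the replicate block, which takes up the pairing of arms within a culture, 242 genes were higher and 3 differed between screens. Leaving out 1 replicate gave 169 to 220 lower and 211 to 261 higher genes, 0 to 250 differences between screens, 169 to 220 differences between sgRNAs and 22 to 70 between positions. Differences between screens numbered 66 with DESeq2, 6 with the second sgRNA alone, and 1 each with median-of-ratios scaling, the first sgRNA alone, the first position alone and the second position alone.

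Scaling to equal doublings gave 367 lower and 60 higher genes and turned the sign of ASCC3 (-0.15), ATXN10 (-0.46), AURKA (-0.42), BLM (-0.40), CAD (-0.69), CARS2 (-0.10), CENPM (-0.034), CLSPN (-0.44), CSTF1 (-0.60), DKC1 (-0.51), EIF4G1 (-0.021), GEN1 (-0.014), HSD17B12 (-0.13), IPO13 (-0.62), NOP10 (-0.33), PARS2 (-0.39), PPCS (-0.066), RB1 (-0.0046), TAF2 (-0.42), TOP1 (-0.014), TOP2A (-0.18), UHRF1 (-0.023), XRCC5 (-0.47) and XRCC6 (-0.026). Median-of-ratios scaling turned RNASEH2A (0.011) and TOP3A (0.005). The first sgRNA alone turned MSH6 (0.033), the second RMI1 (0.022), RNASEH2A (0.006) and ORC5 (0.0899), and leaving out 2022 replicate 2 turned HUS1 (0.0043), which was at -0.28 without 2022 replicate 1. Other causes were not tested. With 2 cultures per screen, calls near the range of control sgRNAs are the least certain, and counting error covers only part of the error of PCR reads.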
